A study of Mus musculus with 50 samples.

Results

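The adenylate cyclases of the cell membrane are encoded in the mouse by the 9 genes Adcy1 to Adcy9, which were followed here through all 37310 genes of the RNA count tables by their annotated names. The cells were J1 mouse embryonic stem (ES) cells of the 129S4/SvJae strain, untreated and grown on gelatin in medium with serum and LIF, a cytokine that maintains them, as the NSD1-/- line KO1, the NSD1-/- line KO2 and wild type cells. Each group had 2 RNA libraries, and the other 44 of the 50 samples of the series, from chromatin assays, were not analysed here. NSD1 is a histone methyltransferase known for dimethylating lysine 36 of H3, and the comparison asks which genes change in its absence. How the lines were derived is not given in the labels, nor whether replicate libraries came from separate cultures. The p-values below therefore reflect the spread among libraries alone, and that spread could be technical. Adcy9 was singled out because its counts were high in KO1, so its values are given as a description with no test, while the other members, the genes beside Adcy9 and the genes of its pathway were tested.

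Adenylate cyclases turn ATP into cyclic AMP (cAMP) when receptors at the cell surface activate the stimulatory G protein Gs or its olfactory relative, and inhibitory G proteins oppose them. cAMP then activates protein kinase A, the EPAC exchange factors and transcription through CREB, and phosphodiesterases break it down. The membrane isoforms differ in what regulates them: Adcy1, Adcy3 and Adcy8 respond to calcium and calmodulin, Adcy2, Adcy4 and Adcy7 are stimulated by G protein beta-gamma subunits, Adcy5 and Adcy6 are inhibited by calcium, and Adcy9 responds poorly or not at all to forskolin, the plant compound that activates the others.

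Total counts per library were 1168961 and 1194285 in KO1, 1150089 and 1285487 in KO2, and 1203554 and 1237783 in wild type. AY036118, a locus known to overlap a ribosomal RNA sequence, took 32.3% to 37.2% of them, and of the rest 88.6% to 90.6% lay at the 5431 genes that share exon sequence with a gene transcribed in the opposite direction. All 50 genes with the most counts were among those, so each count was read as a fragment from the strand facing the named gene. The gene opposite is named for most of the rows that differed, but not for every row. Where none is annotated, as at Adcy9, the tables do not tell the gene's own transcripts from an unannotated transcript. All 12 ES cell markers had counts, with summed levels of 309 to 342 CPM in KO1, 323 to 339 in KO2 and 323 to 344 in wild type, where CPM is the count scaled by library size. Of 7 fibroblast markers, Col1a2, Col3a1 and Thy1 were at 0 in all libraries and the sums were 55.0 to 55.3 CPM in KO1, 40.4 to 54.4 in KO2 and 48.5 to 50.7 in wild type. Endoderm markers summed to 2.52 to 4.85 CPM in KO1, 8.24 to 8.91 in KO2 and 3.50 to 5.10 in wild type, with Gata6, Sox17 and Sox7 at 0, and neuroectoderm markers to 183 to 184, 152 to 168 and 158 to 163 in KO1, KO2 and wild type. On the strand opposite the fibroblast markers Timp3 and Col1a1, the rows of Syn3 and Gm17329 held 16 to 19 and 3 to 4 counts in KO1, 9 to 15 and 1 to 4 in KO2, and 75 to 97 and 78 to 94 in wild type. Both were called lower in both lines by edgeR and by DESeq2. Their log2 fold changes over wild type were -4.64 to -2.35 in KO1 and -5.05 to -2.84 in KO2. Of rows opposite neuroectoderm markers 1 was tested, with log2 fold changes over wild type of 0.28 in KO1 and -0.57 in KO2. In KO2 edgeR called it (adjusted p = 0.00695) and DESeq2 did not. Opposite the ES cell markers 2 rows were tested. Their log2 fold changes over wild type were -0.48 to 0.037 in KO1 and -0.38 to -0.25 in KO2. At an edgeR adjusted p under 0.05, 1 fell in KO1 and 2 in KO2, against 9.79% and 8.98% of all tested genes. DESeq2 called 1 and 0. On this strand reading the marker rows do not measure the markers' own transcripts. The part of these marker differences in the results below was not tested. Nsd1, the targeted gene, had 55 and 38 counts in KO1, 27 and 21 in KO2, and 21 and 25 in wild type, and with fragments of the other strand this row does not check its loss.

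Adcy9 (ENSMUSG00000005580.4) lies on the minus strand of chromosome 16, from 4287529 to 4420498 in mm9, with 5197 exon bases in 11 blocks, and 0 annotated genes on the other strand overlap it. Adcy3 (ENSMUSG00000020654.9) lies on the plus strand of chromosome 12, from 4133103 to 4213525, with 6246 exon bases. The promoters of these genes are shown because they are the members whose counts differed most between the lines. Both are from RefSeq (GRCm38.p6), with 250 bases before and 50 after the annotated start, and the mm9 genome held the same letters at the same coordinates. The Adcy9 window is chr16:4420449-4420748 on the minus strand and the Adcy3 window, the first of 2 in the table, is chr12:4133147-4133446 on the plus strand. The Adcy3 window lies inside the annotated span used for counting, which starts at 4133103, as the RefSeq start lies further along. Capitals mark the GC box GGGCGG and the short cAMP response element TGACG, each searched on both strands.
Adcy9 promoter: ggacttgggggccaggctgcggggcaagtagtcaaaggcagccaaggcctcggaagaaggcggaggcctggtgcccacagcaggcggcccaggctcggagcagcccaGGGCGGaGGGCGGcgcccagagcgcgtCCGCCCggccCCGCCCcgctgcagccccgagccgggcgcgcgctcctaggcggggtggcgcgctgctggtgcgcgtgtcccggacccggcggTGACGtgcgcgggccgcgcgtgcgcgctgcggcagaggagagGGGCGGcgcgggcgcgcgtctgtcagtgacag
Adcy3 promoter: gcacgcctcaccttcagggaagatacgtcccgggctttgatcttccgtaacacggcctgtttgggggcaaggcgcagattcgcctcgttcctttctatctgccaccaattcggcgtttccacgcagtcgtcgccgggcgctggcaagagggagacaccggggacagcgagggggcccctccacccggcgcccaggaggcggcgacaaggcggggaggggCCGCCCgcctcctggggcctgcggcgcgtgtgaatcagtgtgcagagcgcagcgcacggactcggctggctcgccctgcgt
The Adcy9 window held 5 GC boxes, 1 short cAMP response element and 42 CpG, with 78.3% G and C. The Adcy3 window held 1 GC box, 0 short elements and 33 CpG, with 68.7% G and C. Neither held the full element TGACGTCA, of which the short one is the start. Over 32841 RefSeq promoter windows of this length the medians were 52.7% G and C and 7 CpG, and 35.7% held a GC box, 20.8% the short element and 1.79% the full one. The table had windows for 7 of the 9 members. Those of Adcy1, Adcy2 and Adcy5 had 74%, 75% and 79% G and C, 37, 32 and 44 CpG, and 5, 3 and 4 GC boxes, like that of Adcy9. The Adcy4 window had 58% G and C and 16 CpG. The Adcy7 windows had 54.7% to 57% and 4 to 6 CpG, and 1 of them held the short element. A match to these letters is a description of the window only.

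Among the 9 members, Adcy9 had the largest difference in counts between KO1 and the other groups. Its counts were 83 and 101 in the KO1 libraries, 8 and 16 in the KO2 libraries, and 5 and 5 in the wild type libraries. Both KO1 libraries lay far above the other 4, and both KO2 libraries lay above both wild type libraries by a few counts. The level averaged 75.9 ± 12.4 CPM in KO1, 10.2 ± 4.29 CPM in KO2 and 4.31 ± 0.0877 CPM in wild type (SD, n = 2 each). The fitted log2 fold change was 4.10 ± 0.48 (SE) in KO1 over wild type, a 17.2-fold difference, and 2.87 ± 0.33 in KO1 over KO2, a 7.31-fold difference. In KO2 over wild type it was 1.23 ± 0.55, which rests on 24 counts in KO2 and 10 in wild type. With each library left out in turn, the log2 fold change stayed between 3.91 and 4.27 in KO1 over wild type, between 2.49 and 3.38 in KO1 over KO2, and between 0.72 and 1.61 in KO2 over wild type. Among all 5034 tested genes, its log2 fold change ranked 2 from the top in KO1 over wild type, 86 in KO2 over wild type and 9 in KO1 over KO2. Among the 1950 tested genes with at least the mean count of Adcy9, the ranks were 1, 13 and 1 in the same order. That cut depends on the high KO1 counts for which Adcy9 was chosen. In bulk RNA, more fragments per cell and more cells that hold them cannot be told apart.

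**Figure D1:**
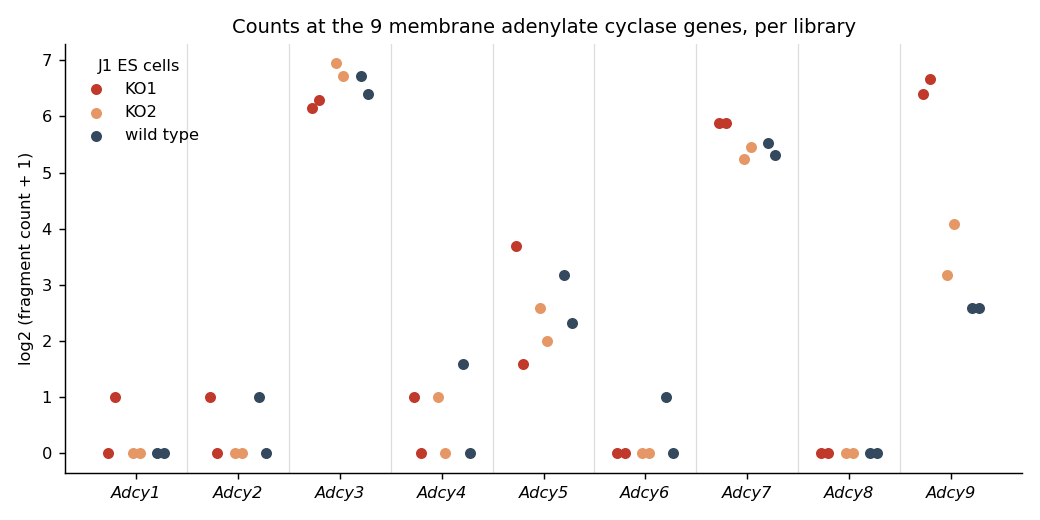
Fragment counts at the 9 membrane adenylate cyclase genes, as log2 of the count plus 1 (y axis), with 1 point per library, colored by group. Adcy9 stands at 83 and 101 counts in KO1, against 8 and 16 in KO2 and 5 and 5 in wild type, while Adcy3 and Adcy7 have counts in every library and the other 6 members have few or none.

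Adcy3, the isoform known for odor detection and for its place in primary cilia, had 70 and 77 counts in KO1, 122 and 104 in KO2, and 104 and 83 in wild type. The KO1 libraries were below all of the others, and KO2 and wild type met at 104 counts. Adcy7 had 58 and 58 counts in KO1, 37 and 43 in KO2, and 45 and 39 in wild type, so that the KO1 libraries were above the other 4 and the ranges of KO2 and wild type overlapped. Adcy5, an isoform of heart and striatum, had 12 and 2 counts in KO1, 5 and 3 in KO2, and 8 and 4 in wild type, with all groups overlapping. The remaining 5 members were at or near 0. Adcy8 had 0 counts in all 6 libraries, which allows up to 0.414 CPM over the libraries together (3 counts, scaled by total counts without TMM, counting error only). Adcy1 had 1 count in KO1 alone and Adcy6 1 count in wild type alone, Adcy2 had 1 count in KO1 and 1 in wild type, and Adcy4 had 1 in KO1, 1 in KO2 and 2 in wild type. The soluble cyclase Adcy10, which responds to bicarbonate rather than to G proteins, had 4 and 6 counts in KO1, 1 and 2 in KO2, and 3 and 1 in wild type.

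Per kilobase of exon, the order of the member rows differed between the groups at the top. The rows are read as fragments from the facing strand, so this order and the sums below are not read as levels of cyclase transcripts. In KO1, Adcy9 came first at 14.6 ± 2.39 CPM per kb, then Adcy3 at 9.70 ± 0.901, Adcy7 at 7.55 ± 0.194 and Adcy5 at 0.812 ± 0.810 (SD, n = 2 each), and the libraries of neighbouring members did not overlap. In KO2, Adcy3 came first at 15.6 ± 2.60 CPM per kb, then Adcy7 at 5.40 ± 0.277, Adcy9 at 1.96 ± 0.825 and Adcy5 at 0.494 ± 0.200. In wild type, Adcy3 was at 12.9 ± 2.31, Adcy7 at 5.73 ± 0.694, Adcy9 at 0.830 ± 0.0169 and Adcy5 at 0.742 ± 0.363 CPM per kb, and the libraries of the last pair overlapped. Of Adcy3 exon bases 22.1% face an exon of Cenpo, so its level per kb mixes shared and unshared sequence. The Adcy9 row made up 36.9% and 42.3% of the counts summed over the member rows in the KO1 libraries. It made up 4.62% and 9.64% in the KO2 libraries, and 3.01% and 3.82% in the wild type libraries. The family held 225 and 239 counts in KO1, 173 and 166 in KO2, and 166 and 131 in wild type. Without Adcy9 these became 142 and 138 in KO1, 165 and 150 in KO2, and 161 and 126 in wild type, and KO1 no longer stood above the others. Among genes with no exon opposite and with any count in the group, Adcy9 ranked 629 of 11424 by CPM per kb in KO1, 3399 of 10834 in KO2 and 5585 of 11074 in wild type.

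Of the 9 members, 3 passed the filter on low counts (Adcy3, Adcy7 and Adcy9), and the tests concern the 2 that were not chosen for their values. A gene was called at a Benjamini-Hochberg adjusted p under 0.05 in edgeR's quasi-likelihood fit over all 5034 tested genes. In KO1 against wild type 0 of the 2 were called, against 9.79% of all tested genes, with 1 at an unadjusted p under 0.05 and 0 called by DESeq2. Adcy3 had a log2 fold change of -0.41 ± 0.18 (edgeR adjusted p = 0.159) and Adcy7 of 0.40 ± 0.21 (edgeR adjusted p = 0.271). In KO2 against wild type 0 of the 2 were called, against 8.98% of all tested genes, with 0 at an unadjusted p under 0.05 and 0 by DESeq2, at 0.26 ± 0.17 for Adcy3 and -0.08 ± 0.23 for Adcy7. In KO1 against KO2, the Adcy3 row was lower and was the 1 of the 2 called, against 19.3% of all tested genes (log2 fold change -0.68 ± 0.18, edgeR adjusted p = 0.00533). On the strand reading given above, this row holds fragments from the minus strand, the strand of Cenpo. The difference is therefore not read as a fall of Adcy3 transcripts. Adcy7 was at 0.48 ± 0.21 in KO1 over KO2 (edgeR adjusted p = 0.119). The Adcy3 call did not pass without KO1 replicate 1 (-0.57, edgeR adjusted p = 0.0873) or without KO2 replicate 1 (-0.52, edgeR adjusted p = 0.0779). With the mean of both lines against wild type 0 of the 2 were called, against 6.62% of all tested genes, with 0 at an unadjusted p under 0.05 by edgeR and 0 called by DESeq2. The contrasts share libraries and are given side by side only.

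The row of Cenpo, the gene facing Adcy3, rose in KO2. Cenpo (ENSMUSG00000020652.10), which encodes a centromere protein and lies on the minus strand of chromosome 12 from 4196004 to 4234294, shares 1380 exon bases with Adcy3, 19.0% of Cenpo's exons, and a further 252 bases with 2410017P09Rik. On the strand reading given above, the fragments counted at Cenpo come from the plus strand, which is the strand of Adcy3. The row held 270 and 261 counts in KO1, 481 and 526 in KO2, and 276 and 247 in wild type. Both KO2 libraries lay far above the other 4, and the KO1 libraries lay within the wild type range. The log2 fold change was 0.93 ± 0.09 in KO2 over wild type, a 1.91-fold rise (edgeR adjusted p = 6.74e-09), and -0.98 ± 0.09 in KO1 over KO2 (edgeR adjusted p = 1.17e-09). In KO1 over wild type it was -0.05 ± 0.10 (edgeR adjusted p = 0.851). By edgeR and DESeq2 and with each library left out, Cenpo was called in KO2 at values between 0.85 and 1.05. Of the 17 genes within 500 kb of Adcy3, 3 were tested. Cenpo, chosen once its values were known, was the 1 called in KO2 over wild type, against 8.98% of all tested genes. Of the 3, 2 had an unadjusted edgeR p under 0.05 there. The other was Gm20448, with 11 and 4 counts in KO1, 12 and 8 in KO2, and 4 and 2 in wild type. Its log2 fold change in KO2 over wild type was 1.69 ± 0.76 (edgeR adjusted p = 0.140). The tables do not split Cenpo's counts into those at the shared bases and those elsewhere.

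**Figure D2:**
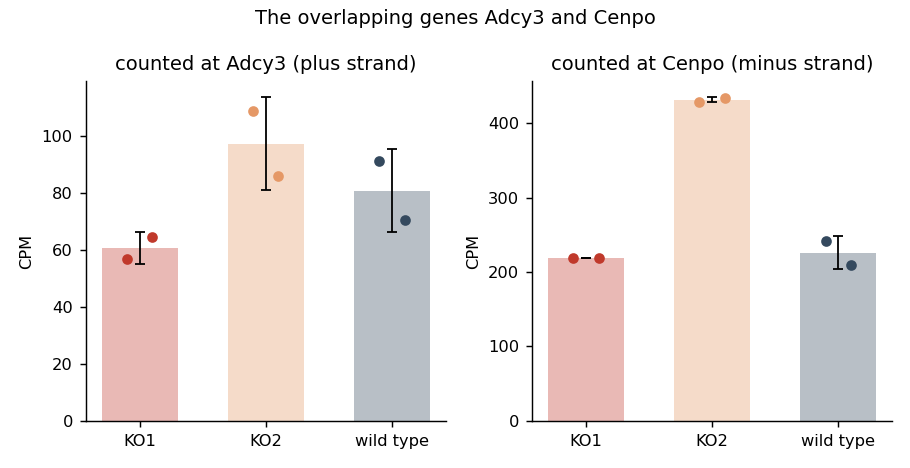
Levels in CPM (y axis) at the overlapping genes Adcy3 and Cenpo in KO1, KO2 and wild type, with bars for means, points for the 2 libraries of a group and error bars for the SD. Cenpo stood at 431 ± 3.52 CPM in KO2, against 219 ± 0.370 in KO1 and 226 ± 22.3 in wild type, while Adcy3 differed by less and was lowest in KO1.

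Of 38 annotated genes within 500 kb of Adcy9, 24 had at least 10 counts over the libraries and 16 were tested. Of those 16, 0 were called higher in KO1 over wild type, against 174 of all 5034 tested genes. In KO1 over wild type their log2 fold changes ran from -1.05 to 1.08 with a median of -0.06, against 0.01 over all tested genes, and the highest value was that of Srl. In this comparison 1 of the 16 was called, or 6.25% against 9.79% of all tested genes, and it fell. That gene, 1700037C18Rik (opposite Nat15), had 391 and 394 counts in KO1, 490 and 552 in KO2, and 433 and 466 in wild type. Its log2 fold change was -0.26 ± 0.08 in KO1 over wild type (edgeR adjusted p = 0.0374), a call lost with DESeq2 (adjusted p = 0.272), with no low-count filter (edgeR adjusted p = 0.0588), with upper-quartile scaling (edgeR adjusted p = 0.0791), with AY036118 left out (edgeR adjusted p = 0.0527) and without any 1 of the KO1 or wild type libraries. In KO2 over wild type the range was -0.72 to 0.78 and 1 neighbour was called (6.25%, against 8.98% of all tested genes), 5730403B10Rik (opposite Hmox2). It had 448 and 417 counts in KO1, 497 and 554 in KO2, and 423 and 421 in wild type, and its log2 fold change in KO2 was 0.31 ± 0.08 (edgeR adjusted p = 0.0108), not called by DESeq2 (adjusted p = 0.0962) or without KO2 replicate 2 or wild type replicate 2.

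In KO1 over KO2, 0 neighbours rose and 3 fell, a share of 18.8% against 19.3% of all tested genes, so the share in both directions was near the background. Of all 5034 tested genes, 399 rose and 572 fell in this comparison. They were 1700037C18Rik (log2 fold change -0.46 ± 0.08, edgeR adjusted p = 7.13e-05), 5730403B10Rik (-0.34 ± 0.08, edgeR adjusted p = 0.00232) and Dnaja3, which encodes a mitochondrial cochaperone (-0.59 ± 0.18, edgeR adjusted p = 0.0166), and DESeq2 called 2 of them. Dnaja3, whose exons face Coro7, had 65 and 57 counts in KO1, 85 and 92 in KO2, and 65 and 60 in wild type, and its call did not pass without either KO1 library or without KO2 replicate 2. With the lines together against wild type 0 neighbours were called by edgeR, with 0 at an unadjusted p under 0.05 and 0 called by DESeq2. The nearest tested gene before the Adcy9 start, Srl, which encodes the muscle calcium-binding protein sarcalumenin, lies 59.7 kb away and had 13 and 5 counts in KO1, 3 and 11 in KO2, and 5 and 3 in wild type. The nearest tested gene past the Adcy9 end, Crebbp, which encodes the CREB-binding protein, lies 74.1 kb away and had 27 and 21 counts in KO1, 12 and 16 in KO2, and 23 and 23 in wild type. Neither was called in any comparison. The remaining tested neighbours held between 3 counts (Nlrc3) and 278 counts (Dnase1) in KO1 libraries. The 8 neighbours with too few counts to test held 0 to 13 counts per library. Of these, 4930562C15Rik had 13 and 7 counts in KO1, 2 and 4 in KO2, and 3 and 2 in wild type, and Tcfap4 had 11 and 7 in KO1, 7 and 5 in KO2, and 4 and 4 in wild type, so that the KO1 libraries of 4930562C15Rik lay above the other 4. Over the 154 tested genes of chromosome 16 the median log2 fold change was -0.01 in KO1 and -0.01 in KO2, both over wild type.

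**Figure D3:**
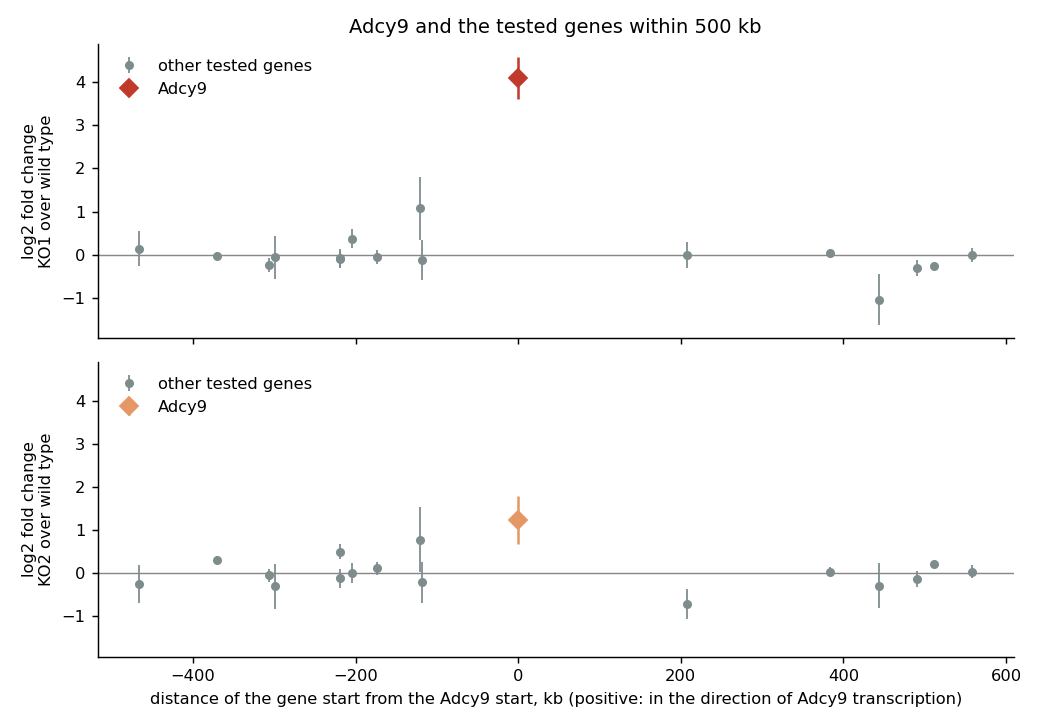
Log2 fold change over wild type (y axis) of Adcy9 and the 16 tested genes within 500 kb against the distance of each gene's start from the Adcy9 start in kb (x axis), for KO1 in the upper panel and KO2 in the lower, with error bars for the SE of the fit. In KO1, Adcy9 stands at 4.10 and the other genes between -1.05 and 1.08, and in KO2 Adcy9 stands at 1.23 and the others between -0.72 and 0.78.

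Genes that act before and after the cyclases were taken from 10 lists, with 125 annotated genes, of which 26 were tested. As above, the row of a gene is read as fragments from the strand facing it, so a rise in a row is not read as a rise of the named gene's own transcripts. In KO1 against wild type 3 rows rose and 0 fell (0 called by DESeq2), or 11.5% against 9.79% of all tested genes. In KO2 against wild type 2 rose and 0 fell (1 called by DESeq2), or 7.69% against 8.98%. In KO1 against KO2 3 rose and 0 fell (1 called by DESeq2), or 11.5% against 19.3%, and with the lines together 2 rose and 0 fell (1 called by DESeq2), or 7.69% against 6.62%. Counted in both directions, these shares were near or below those of all tested genes. All the pathway calls were rises, and of all 5034 tested genes 174, 252, 399 and 137 rose in the same order. Counted as rises alone, the pathway share was above that of all tested genes in each comparison, on 2 or 3 rows. The median log2 fold change of the 26 was 0.13 in KO1 over wild type, -0.03 in KO2 over wild type and 0.22 in KO1 over KO2, against 0.01, -0.01 and 0.02 over all tested genes.

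Among G protein alpha subunits, the rows of Gnas and Gnal were called. Gnas, which encodes the alpha subunit of Gs, had 191 and 137 counts in KO1, 69 and 76 in KO2, and 102 and 102 in wild type, with no overlap between the groups. Of Gnas exon bases, 1469 face AF085738 and 988 face Nespas. The Gnas row rose in KO1 over wild type (0.62 ± 0.15, edgeR adjusted p = 0.00572) and was higher in KO1 than in KO2 (1.12 ± 0.16, edgeR adjusted p = 4.48e-06), with -0.50 ± 0.18 in KO2 over wild type (edgeR adjusted p = 0.0715). The call in KO1 over wild type was lost with DESeq2 (adjusted p = 0.0981) and without KO1 replicate 1, the higher library (0.40, edgeR adjusted p = 0.232). The far larger row of AF085738, whose exons lie to 99.0% opposite Gnas exons, is on this reading the row of fragments from the Gnas strand. It held 3392 and 3401 counts in KO1, 4180 and 4550 in KO2, and 4972 and 5087 in wild type. It fell in both lines, with -0.63 ± 0.05 in KO1 over wild type (edgeR adjusted p = 4.40e-11), -0.21 ± 0.05 in KO2 over wild type (edgeR adjusted p = 0.00171) and -0.42 ± 0.05 in KO1 over KO2 (edgeR adjusted p = 4.16e-08). Of the exon bases of Gnal, the alpha subunit of the olfactory G protein that activates Adcy3 in the nose, 365 (4.61%) face Mppe1. The Gnal row had 132 and 126 counts in KO1, 147 and 132 in KO2, and 86 and 85 in wild type. Both lines lay above wild type. The row rose in KO2 (0.70 ± 0.15, edgeR adjusted p = 0.00216, DESeq2 adjusted p = 0.0318) and in KO1 (0.53 ± 0.15, edgeR adjusted p = 0.0239). The KO1 call was lost with DESeq2 (adjusted p = 0.200), with no low-count filter (edgeR adjusted p = 0.0511) and without any 1 of the KO1 or wild type libraries. The other tested alpha subunits, Gnai2 and Gnat1, were not called in any comparison.

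Of 36 listed receptors that raise cAMP, 4 were tested. Adrb3, the beta-3 adrenergic receptor, had 40 and 40 counts in KO1, 46 and 49 in KO2, and 27 and 20 in wild type, and both lines lay above wild type. It rose in KO2 over wild type (1.00 ± 0.26, edgeR adjusted p = 0.0101), a call lost with DESeq2 (adjusted p = 0.129) and without wild type replicate 2 (0.80, edgeR adjusted p = 0.148). In KO1 over wild type it was at 0.70 ± 0.27 (edgeR adjusted p = 0.0951). Of the cAMP phosphodiesterases 4 were tested and 2 were called in some comparison. Pde8a, a high-affinity cAMP phosphodiesterase, had 26 and 33 counts in KO1, 15 and 18 in KO2, and 13 and 14 in wild type. It rose in KO1 over wild type (1.05 ± 0.33, edgeR adjusted p = 0.0326), a call lost with DESeq2 (adjusted p = 0.329), with no low-count filter (edgeR adjusted p = 0.0935), at a minimum count of 3 (edgeR adjusted p = 0.0543), without KO1 replicate 2 and without either wild type library. Pde1b, a phosphodiesterase that calcium and calmodulin activate, had 19 and 29 counts in KO1, 7 and 5 in KO2, and 9 and 11 in wild type. It was higher in KO1 than in KO2 (1.92 ± 0.48, edgeR adjusted p = 0.00185). That call was lost without KO1 replicate 2 (1.55, edgeR adjusted p = 0.0619), and DESeq2 gave Pde1b no adjusted p. In KO1 over wild type it stood at 1.19 ± 0.41 (edgeR adjusted p = 0.0507) and passed the threshold with upper-quartile scaling (edgeR adjusted p = 0.0441), with AY036118 left out (edgeR adjusted p = 0.0448), without KO1 replicate 1 (edgeR adjusted p = 0.0409) and without KO2 replicate 1 or 2 (edgeR adjusted p = 0.0331 and 0.0317).

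Further along the pathway few genes held enough counts to test. Of protein kinase A subunits and inhibitors 2 of 9 were tested and 0 were called in any comparison, by edgeR or DESeq2, with 0 at an unadjusted p under 0.05. Prkaca, the catalytic subunit, had 20 and 13 counts in KO1, 17 and 16 in KO2, and 11 and 12 in wild type, and the regulatory subunit Prkar2a had 15 and 15, 16 and 20, and 14 and 18 counts in KO1, KO2 and wild type. Of the A-kinase anchoring proteins 5 of 16 were tested and 0 were called by edgeR or DESeq2, with 0 in KO1 and 1 in KO2 at an unadjusted p under 0.05 against wild type, and 1 in KO1 against KO2. The most abundant, Akap12, had 61 and 50 counts in KO1, 59 and 61 in KO2, and 56 and 57 in wild type. Ezr, which encodes the cytoskeletal linker ezrin, had 27 and 41 counts in KO1, 25 and 17 in KO2, and 31 and 36 in wild type. The EPAC genes Rapgef3 and Rapgef4 held 3 and 2 counts over all libraries and were not tested.

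Among CREB factors and coactivators, Ep300 and its relative Crebbp were tested. Ep300, a histone acetyltransferase, had 26 and 33 counts in KO1, 14 and 12 in KO2, and 22 and 29 in wild type, with the KO2 libraries below the other 4. It was higher in KO1 than in KO2 (1.12 ± 0.34, edgeR adjusted p = 0.0155), a call lost without KO1 replicate 2 (0.90, edgeR adjusted p = 0.157) and without KO2 replicate 2 (0.94, edgeR adjusted p = 0.131). DESeq2 gave it no adjusted p there, and it was at -0.97 ± 0.35 in KO2 over wild type (edgeR adjusted p = 0.0716). Of 15 CREB target genes 2 were tested and 0 were called by edgeR or DESeq2, with 1 in KO1 at an unadjusted p under 0.05. Sik1, a kinase that restrains CREB coactivators, had 12 and 12 counts in KO1, 7 and 6 in KO2, and 6 and 4 in wild type, and Junb, an AP-1 transcription factor, had 16 and 29, 18 and 13, and 26 and 19 counts in KO1, KO2 and wild type. Of 12 listed regulators of adenylate cyclases 3 were tested and 0 were called by edgeR or DESeq2, with 0 at an unadjusted p under 0.05 in any comparison. The calmodulin gene Calm3 had 21 and 31 counts in KO1, 22 and 23 in KO2, and 16 and 18 in wild type, and Cap1, an actin regulator whose yeast relative binds adenylate cyclase, had 21 and 30, 20 and 19, and 25 and 19 counts in KO1, KO2 and wild type. Ppt1, a lysosomal thioesterase gene that faces Cap1, had 335 and 339 counts in KO1 and 402 and 412 in KO2. It was lower in KO1 than in KO2 (-0.33 ± 0.09, edgeR adjusted p = 0.00820), a call lost with DESeq2 (adjusted p = 0.0637) and without KO1 replicate 1 (-0.28).

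**Figure D4:**
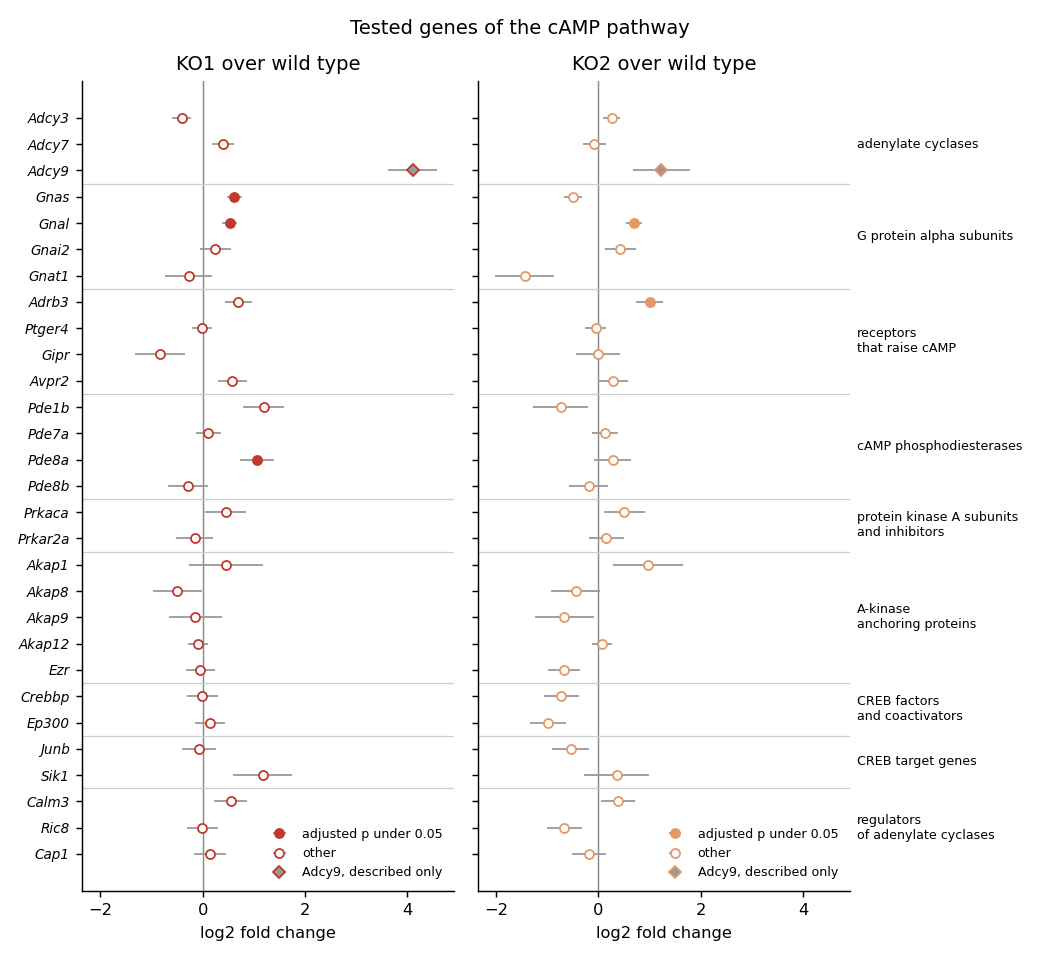
Log2 fold change over wild type (x axis) of the tested adenylate cyclases and of the 26 tested genes of the cAMP pathway, grouped by list, for KO1 on the left and KO2 on the right, with error bars for the SE of the fit. Filled circles are genes with an edgeR adjusted p under 0.05, which are Gnas, Gnal and Pde8a in KO1 and Gnal and Adrb3 in KO2, and the diamonds give Adcy9, at 4.10 in KO1 and 1.23 in KO2, as a description.

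The genes with the profile most like that of Adcy9 were sought among the other 5033 tested genes, by the Euclidean distance between log2 CPM values over the 6 libraries after the wild type mean of each gene was subtracted. The nearest was Tmem40, a predicted membrane protein gene, at a distance of 1.85, against a median of 5.45 over all tested genes. Tmem40 had 12 and 12 counts in KO1, 1 and 0 in KO2, and 0 and 0 in wild type. Set against 3 counts over the wild type group, it was 8.26-fold higher in KO1, scaled by total counts without TMM. On the same scale its ratio in KO1 over KO2 was 24.7, with an exact 95% counting interval of 4.03 to 1017. Next came Osbpl1a, which encodes an oxysterol-binding protein relative, at 2.30, with 61 and 43 counts in KO1, 6 and 12 in KO2, and 7 and 9 in wild type. Osbpl1a and Adcy9 share the high KO1 libraries, and Osbpl1a differs in that KO2 and wild type overlapped. The predicted gene 1810009N23Rik (opposite Galnt6), at 2.42, had 19 and 28 counts in KO1, 11 and 15 in KO2, and 1 and 6 in wild type. The predicted gene 2610037D02Rik, at 2.55, had 20 and 14 counts in KO1, 9 and 11 in KO2, and 2 and 3 in wild type. Ica1l, a relative of an islet cell autoantigen gene, at 2.58, had 16 and 18 counts in KO1, 7 and 10 in KO2, and 2 and 4 in wild type. In these last genes KO2 lay between KO1 and wild type, as Adcy9 did. They were picked for their likeness, so their differences are a description.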

How the data were processed

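The deposited tables, 1 per library, hold raw counts of fragments per gene without normalization. Per the file headers, the authors ran featureCounts 2.0.1 on exons with strand setting 1 and the GENCODE mouse version 1 annotation. Per the submitters' processing notes the genome was mm9, and the tools, with no role stated, were STAR 2.5.4b, Trim Galore 0.6.4, bedtools 2.92.2, Bowtie2, featureCounts 2.0.0 and GATK 4.1.4.0. Strand marking by the library kit is not given in these sources.

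In edgeR 4.0.16 (R 4.3.3), genes were kept by filterByExpr at a minimum count of 10, libraries were scaled by TMM, and a robust quasi-likelihood model with 1 mean per group was fitted to all 6 libraries, leaving 3 residual degrees of freedom. The common biological coefficient of variation was 4.46%, and the median count of a tested gene was 23 to 27 across libraries, so many differences rest on few fragments. Calls used Benjamini-Hochberg adjusted p under 0.05 over all 5034 tested genes. Errors are SDs for levels and standard errors of the fit for log2 fold changes. An opposite gene shares at least 50 exon bases on the other strand (bedtools 2.31.1). PCR duplicates were not told apart here, so floors and intervals cover counting error only. The steps were tested on simulated counts.

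The members, lists and naming rule were chosen with earlier results of these data known. The rule took the 9 members, the neighbours of Adcy9 within 500 kb with at least 10 counts, the called members of each pathway list or otherwise the 2 with most counts, the 5 genes nearest to Adcy9 in profile (prior count 2) and Nsd1. Called rows opposite list genes, including Cenpo, were chosen once their values were known, and not all are reported here. The alternatives were DESeq2 1.42.0, other filters and scalings, AY036118 left out, a replicate term and each library left out. The labels state no pairing by replicate number, so the main fit had no replicate term.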

Additional observations from a re-analysis of the deposited data

Results flagged for a closer look

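The lines themselves differed at several of the named genes, as tested in KO1 against KO2 (edgeR, adjusted p under 0.05), a comparison in which 19.3% of all tested genes were called. Pathway genes and opposite rows were named partly because they were called, so their number is not a result. Each row is read as fragments from the strand facing the named gene, so these differences are not read as differences of its own transcripts. The rows higher in KO1 than in KO2, as log2 fold changes, were Pde1b (1.92), Gnas (1.12), Ep300 (1.12) and Nsd1 (0.89). Lower in KO1 than in KO2 were Cenpo (-0.98), Adcy3 (-0.68), Dnaja3 (-0.59), 1700037C18Rik (-0.46), AF085738 (-0.42), 5730403B10Rik (-0.34) and Ppt1 (-0.33). The call of Nsd1 in KO1 against KO2 was lost with DESeq2 and without KO1 replicate 1 (0.64) or KO2 replicate 2 (0.65).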

How the results depend on the processing

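With DESeq2 the number of genes called was 207 in KO1 against wild type, 170 in KO2 against wild type, 417 in KO1 against KO2 and 115 with the lines together, against 493, 452, 971 and 333 with edgeR. With each library left out in turn the counts ran from 280 to 591, 328 to 435, 561 to 1065 and 213 to 362 in the same order, with 280 and 303 in KO1 against wild type and 561 and 643 in KO1 against KO2 without KO1 replicate 1 or 2, and 213 and 218 with the lines together without wild type replicate 1 or 2. The labels state no pairing by replicate number. The deviations of same-numbered libraries correlated at 0.000269 for KO1 and KO2, 0.0185 for KO1 and wild type and 0.00169 for KO2 and wild type, over 2556 genes. With few counts per gene, such low values do not exclude pairing. With a replicate block the counts were 482, 416, 935 and 321. Of 1302 alternative values of 28 tested named genes, 1189 kept direction and side of the threshold, 67 lost a call, 7 gained one and 39 changed sign, all 39 of them with no call in either fit. With a library left out 34 crossed 0. In KO1 against wild type they were at Prkar2a (-0.31 to 0.012), Akap12 (-0.20 to 0.0043), Ezr (-0.42 to 0.26), Ep300 (-0.078 to 0.34), Junb (-0.59 to 0.34), Cap1 (-0.17 to 0.42) and Cenpo (-0.14 to 0.054). In KO2 against wild type they were at Adcy7 (-0.18 to 0.056), Cap1 (-0.37 to 0.058), Osbpl1a (-0.35 to 0.53) and Nsd1 (-0.17 to 0.29), and in KO1 against KO2 at Prkaca (-0.36 to 0.19), Junb (-0.044 to 0.88) and Calm3 (-0.19 to 0.44). With the lines together they were at Adcy3 (-0.24 to 0.12), Gnas (-0.052 to 0.14), Prkar2a (-0.15 to 0.18), Akap12 (-0.064 to 0.037), Cap1 (-0.21 to 0.22), Ppt1 (-0.0092 to 0.15) and 1700037C18Rik (-0.058 to 0.012). The other 5, also with the lines together, were Prkar2a with no filter (-0.0045) and at a minimum count of 3 (-0.0036), and Akap12 with DESeq2 (0.00022), upper-quartile scaling (0.0082) and AY036118 left out (0.0054). The cause was not tested. The rows of most pathway genes and of 6 of the 9 members fell below the filter, so differences in them were not tested. On the strand reading given above, a low row does not show that the gene's own transcripts were few.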
